A study of Arabidopsis thaliana with 6 samples.

Results

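AGO1-bound small RNAs were compared between ein5 dcl4 plants and wild-type Col-0 plants of Arabidopsis thaliana, locus by locus over the nuclear protein-coding genes. The comparison used 4 of the 6 libraries of the series, 2 from ein5 dcl4 and 2 from Col-0. The third genotype of the series, ein5 dcl4 dcl2, was not compared. Its libraries entered the estimate of the spread and the choice of the 10 loci of largest value in any genotype. The mutant carried the alleles ein5-1 and dcl4-2, and Col-0 carried neither. All plants were grown for 6 days on MS medium and 14 days on soil without treatment, and the aerial parts were taken at an age of 20 days. Small RNAs were isolated with an antibody against AGO1, and the replicates are biological ones by the design text. The question was which mRNA functions gain AGO1-bound small RNAs when EIN5 and DCL4 are lost.

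ARGONAUTE1 (AGO1) is the plant protein that holds a miRNA or siRNA and uses it to find complementary mRNA, which is then cut or held back from translation. EIN5, also named XRN4, is the cytoplasmic exonuclease that removes uncapped mRNA from the 5′ end. DCL4 is a Dicer-like nuclease that cuts long double-stranded RNA into siRNAs, and other Dicer-like proteins can act on the same RNA when it is absent. In wild-type plants few mRNAs feed this route, because decay removes aberrant transcripts before they are copied into double-stranded RNA. Small RNA reads assigned to a gene are no measure of its mRNA level.

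The 4 libraries held 1292727 and 836879 recovered reads in ein5 dcl4, against 1217707 and 957043 reads in Col-0, and are called library a and library b of each genotype. Values are in the deposited unit, in which 1 read was worth 1.92 and 2.79 units in the ein5 dcl4 libraries but 0.185 and 0.257 units in the Col-0 libraries. The 3 reads that a count of 0 allows came to 5.75 and 8.37 units in ein5 dcl4, against 0.555 and 0.770 units in Col-0, and these limits cover counting error only. Because of this difference in scale, each count below is also given after rescaling all libraries to equal table totals. XRN4 (EIN5) held 0 and 1 reads in ein5 dcl4, against 26 and 5 reads in Col-0, and was not called (difference of log2(value + 1) -0.90 ± 0.78 SE, limma adjusted p 0.403). With equal table totals it was called lower, at a log2 difference of -2.99. DCL4 held 4 and 8 reads in ein5 dcl4, against 0 and 4 reads in Col-0, too few to check the genotype. Its call as higher (limma adjusted p 0.0140) did not hold when ein5 dcl4 library b (0.0688) or either Col-0 library (0.120 and 0.0742) was left out, nor with equal table totals (0.145). The 5 root marker genes held 1 read in all and the 2 pollen marker genes 0 reads. Of 3 leaf mesophyll genes CAB3 and RBCS1A were called higher and CA1 was not called, while with equal table totals CAB3 was higher and RBCS1A and CA1 were lower. All libraries came from whole aerial parts, in which fewer cells of a type and less RNA per cell cannot be told apart. Nor can more small RNA be told apart from more of it bound to AGO1, since every library was an immunoprecipitate.

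Nuclear protein-coding loci made up 95.1% and 94.0% of the table total in the ein5 dcl4 libraries, against 15.9% and 14.6% in the Col-0 libraries. The libraries of the genotypes lay far apart, with an exact two-sided permutation p of 0.333, below which 2 libraries against 2 cannot go. With the 10 loci of largest value in any genotype left out of the loci and the total, 5 miRNA loci and 5 nuclear protein-coding loci, the mean share was 92.1% in ein5 dcl4 and 28.1% in Col-0. The nuclear protein-coding loci other than the 2 nitrate reductase genes NIA1 and NIA2 held 47.0% and 46.8% of the table total in ein5 dcl4, against 15.9% and 14.6% in wild-type Col-0. The miRNA loci, the main cargo of AGO1 in the wild type, held 3.69% and 4.80% in ein5 dcl4 and 65.5% and 68.2% in Col-0.

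Of 26712 nuclear protein-coding loci in the table, 10499 had 0 reads in all 4 libraries and 3475 had at least 10 reads over them and were tested. Among these, 2046 (58.9%) were called higher in ein5 dcl4 and 224 (6.45%) lower, at a limma adjusted p under 0.05 over all loci tested. After rescaling to equal table totals 1240 (35.7%) were higher and 976 (28.1%) lower. The median log2 difference over the tested loci was 2.73 in deposited units and 0.60 with equal table totals, while over all 6956 loci of any kind it was -0.15 and -2.54. Counts of functions are read against these shares. A set of 1226 loci (35.3%) was called higher in deposited units and in all 3 rescalings tried (equal table totals, a trimmed mean and equal miRNA totals), and 192 were called lower in all of them. All 2046 loci called higher had both ein5 dcl4 values above both Col-0 values, which a call with 2 libraries per genotype all but requires. Of these, 1268 rested on fewer than 20 reads in ein5 dcl4, 1040 had at most 3 reads in Col-0 and 305 had 0. Without Col-0 library a or b the number called higher fell to 951 or 926 and the number called lower to 108 or 107. In the authors' deposited table, 1610 of the 5407 nuclear protein-coding loci with an adjusted p were higher (29.8%) and 31 lower (0.573%). Of those 1610, 1391 were tested here and 1362 of them were called higher, as 31 of the 31 lower loci were called lower.

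**Figure D1:**
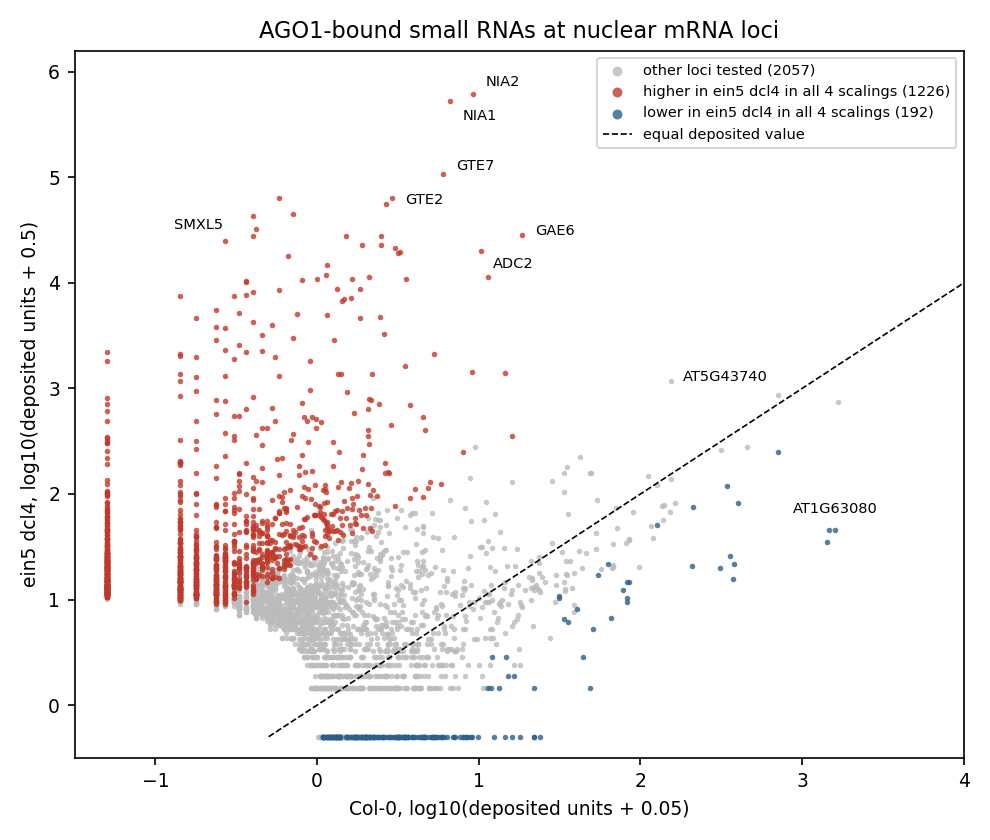
Mean AGO1-bound small RNA value of each of the 3475 nuclear protein-coding loci tested, ein5 dcl4 on the vertical axis and Col-0 on the horizontal axis, both as log10 of deposited units plus a small offset (0.5 and 0.05). Red points are the 1226 loci called higher in all 4 scalings, blue points the 192 called lower, and the dashed line marks equal values. NIA2, NIA1 and GTE7 stand at the top, and AT1G63080 is among the PPR loci far below the line.

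Few mRNAs held most of the value. In ein5 dcl4, 2 loci held 50% of the value of all nuclear protein-coding loci, 15 held 75% and 43 held 90%. In Col-0 it took 5, 47 and 715 loci to reach the same shares. The 82 loci called higher with at least 1000 units in ein5 dcl4 held 94.1% of that value, and their median in Col-0 was 0.727 units. Of these 82, 81 were called in all 4 scalings. The exception was the NLR disease resistance gene AT5G43740, which held 640 and 395 reads in ein5 dcl4, against 793 and 629 reads in Col-0. Its call as higher thus rested on the deposited scaling, while at the other 81 loci the ein5 dcl4 libraries held more reads as well as more units. WES1, an enzyme that conjugates auxin to amino acids, and TPPH, a trehalose phosphate phosphatase, were the 2 among the 82 with 0 reads in both Col-0 libraries.

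Loci with reads in both genotypes were compared without a pseudocount. Over the 459 loci with at least 10 reads in each genotype, the median log2 ratio of the deposited means was 3.49, with 5th and 95th percentiles of -1.49 and 11.36. The ratio itself was above 1 at 382 of these loci. The log2 ratio was at least 5 at 112 loci and at most -3 at 8 loci.

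**Figure D2:**
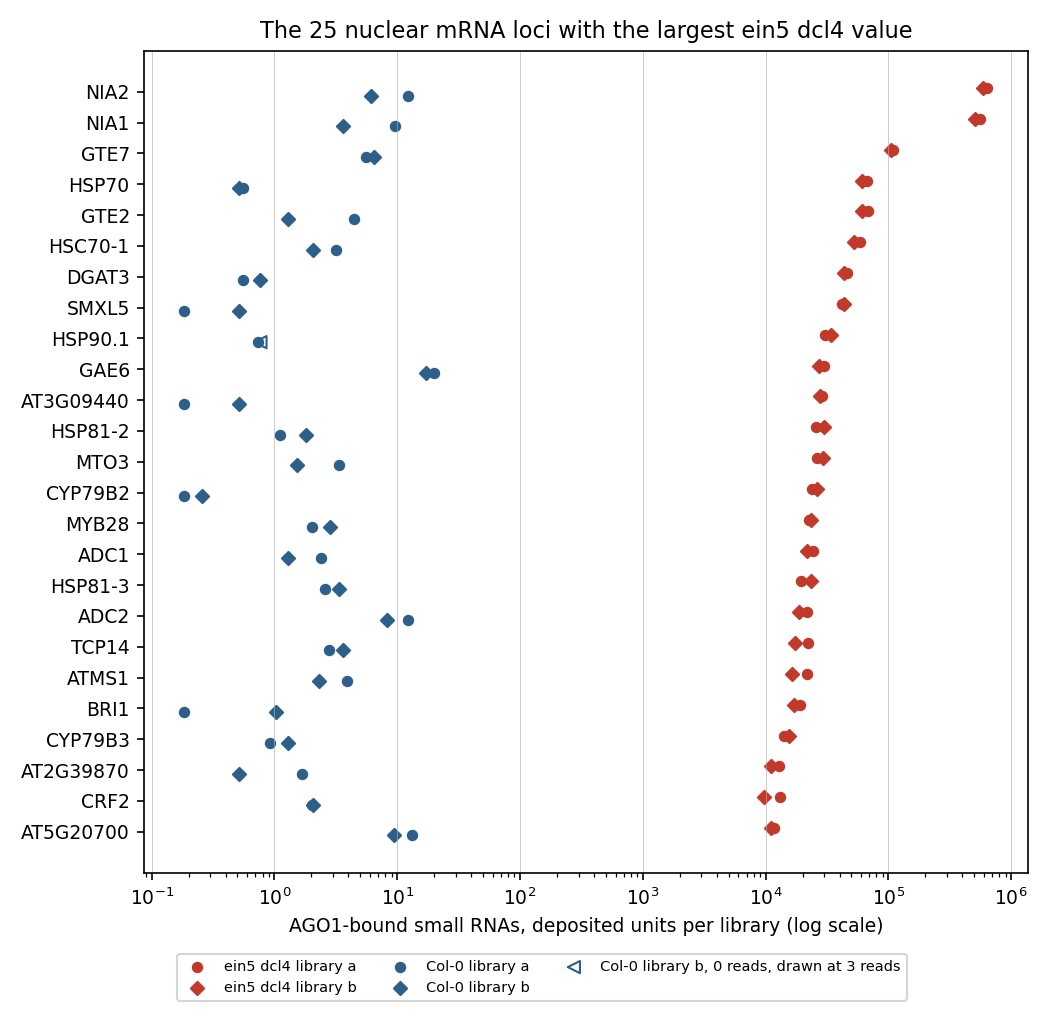
The 25 nuclear protein-coding loci with the largest ein5 dcl4 value, one row each, with deposited units per library on a log axis. Red symbols are the ein5 dcl4 libraries a (circle) and b (diamond), blue symbols the Col-0 libraries, and the open triangle marks the 0 reads of HSP90.1 in Col-0 library b, drawn at its 3-read limit. In each row the mutant points lie to the right of the wild-type points, as the choice of loci without overlap required. GAE6 has the highest Col-0 value of the 25.

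Nitrogen assimilation took the largest share. The nitrate list of uptake, reduction and ammonium assimilation genes held 50.7% and 50.3% of the nuclear protein-coding value in the ein5 dcl4 libraries, against 0.0802% and 0.0430% in the Col-0 libraries. NIA2 and NIA1, the nitrate reductases that carry out the first step from nitrate to nitrite, held 99.9% of the list's value in ein5 dcl4. NIA2 (AT1G37130) held 334024 and 212915 reads in ein5 dcl4, against 66 and 24 reads in Col-0. NIA1 (AT1G77760) held 288403 and 182574 reads in ein5 dcl4, against 52 and 14 reads in Col-0. Both mutant libraries lay far above both wild-type libraries at each gene. The log2 difference was 15.95 ± 0.53 (SE) for NIA2 and 16.21 ± 0.53 for NIA1, with a limma adjusted p of 5.73e-05 for both. Per kilobase of exon the mean value in ein5 dcl4 was 192427 units for NIA2 and 168221 units for NIA1.

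The NIA genes are paralogs with coding sequences of 2754 bases each, and a small RNA that fits both could be counted at either. No 21-mer was common to their coding sequences, and the longest identical run was 20 bases. It is shown in capitals with 12 flanking bases on either side (TAIR10.1, coding strand; NIA2 at chr1:14159193-14159236, plus strand; NIA1 at chr1:29238730-29238773, minus strand).
NIA2: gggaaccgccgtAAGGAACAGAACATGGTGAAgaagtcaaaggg
NIA1: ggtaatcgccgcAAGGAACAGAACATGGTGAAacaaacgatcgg
A 21-base small RNA from the coding sequence of one of these genes thus has no perfect match in that of the other.

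The other members of the nitrate list had far fewer reads. GLT1, the NADH-dependent glutamate synthase, held 406 and 288 reads in ein5 dcl4, against 18 and 3 reads in Col-0 (log2 difference 8.16 ± 0.70, limma adjusted p 0.00128). Nitrite reductase NIR1 held 71 and 39 reads in ein5 dcl4, against 3 and 5 reads in Col-0, and ferredoxin-dependent glutamate synthase GLU1 held 17 and 11, against 1 and 4. The transporters NRT1.1, NRT1.5 and NRT1:2, the regulator NLP7 and the plastid glutamine synthetase GS2 had 2 to 11 reads in any mutant library and 0 to 5 in any wild-type library. All 10 tested members of 18 were called higher in deposited units, but 5 with equal table totals. Without Col-0 library a or b, 5 or 6 were called, and the call of NIR1 was lost in at least 1 of the 4 fits that left out a library (highest limma adjusted p 0.0547).

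Methionine and S-adenosylmethionine (AdoMet) synthesis was a second metabolic route with large values. AdoMet is the methyl donor of the cell and a precursor of ethylene and polyamines. This list and those of polyamine synthesis, meristem receptor kinases and cytokinin response were drawn up after values had been seen, so their counts are descriptions only. The AdoMet list held 2.29% and 2.26% of the nuclear protein-coding value in ein5 dcl4, against 0.0311% and 0.0222% in wild-type Col-0, and all 9 tested members of 13 were called higher, 8 of them with equal table totals. The AdoMet synthetase MTO3 held 13747 and 10478 reads in ein5 dcl4, against 18 and 6 reads in Col-0 (log2 difference 13.03 ± 0.32, limma adjusted p 3.00e-05). The methionine synthase ATMS1 held 11324 and 5874 reads in ein5 dcl4, against 21 and 9 reads in Col-0 (12.19 ± 0.68, limma adjusted p 0.000323). The groups were well apart at both genes. Their paralogs MAT3 and MS2 held 1560 and 571, and 1287 and 711 reads in ein5 dcl4, against 1 and 1, and 2 and 1 reads in Col-0. The genes of the next step, the S-adenosylhomocysteine hydrolases HOG1 and SAHH2, had 108 and 58, and 19 and 20 reads in ein5 dcl4, against 6 and 5, and 4 and 0 reads in Col-0. The folate enzyme MTHFR1 was the lowest member, with 6 and 3 reads in ein5 dcl4, against 3 and 4 reads in Col-0, and its call was lost without at least 1 library (limma adjusted p up to 0.171).

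MTO3 and MAT3 differ strongly in value although both encode AdoMet synthetases. They had 2.50% of the 21-mers of the MTO3 coding sequence in common, and the longest identical run, of 41 bases, is shown in capitals (TAIR10.1; MTO3 at chr3:5953238-5953302 and MAT3 at chr2:15480466-15480530, both minus strand, printed as coding strand).
MTO3: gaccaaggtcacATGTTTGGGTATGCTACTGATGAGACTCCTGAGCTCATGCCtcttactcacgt
MAT3: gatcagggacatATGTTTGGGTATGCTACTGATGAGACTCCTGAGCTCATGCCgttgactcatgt
The mean value of MAT3 in ein5 dcl4 was 8.25% of that of MTO3. A 21-base small RNA could match both coding sequences perfectly only within such shared stretches.

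Polyamines, small cations made from arginine and AdoMet, begin with arginine decarboxylase. Both genes for it were among the 25 largest loci. ADC1 held 12689 and 7737 reads in ein5 dcl4, against 13 and 5 reads in Col-0 (log2 difference 13.00 ± 0.53, limma adjusted p 0.000120). ADC2 held 11317 and 6665 reads in ein5 dcl4, against 66 and 32 reads in Col-0 (10.83 ± 0.27, limma adjusted p 3.00e-05). The 2 genes were nearly equal in ein5 dcl4, while ADC2 had the higher count in Col-0. PAO5, a polyamine oxidase that acts on the products, held 1991 and 1688 reads in ein5 dcl4, against 1 and 2 reads in Col-0. PAO4 held 5 and 6 reads in ein5 dcl4 and 0 in both Col-0 libraries. These were all 4 tested of 17 members, and all 4 were called higher in every scaling, though PAO4 was lost without any 1 of the 4 libraries (limma adjusted p up to 0.127). The list held 2.12% and 2.05% of the nuclear protein-coding value in ein5 dcl4, against 0.0414% and 0.0287% in wild-type Col-0. ADC1 and ADC2 had 3.35% of the 21-mers of the ADC1 coding sequence in common, with a longest run of 40 bases (TAIR10.1; ADC1 at chr2:7151842-7151905 and ADC2 at chr4:16561355-16561418, both minus strand, printed as coding strand).
ADC1: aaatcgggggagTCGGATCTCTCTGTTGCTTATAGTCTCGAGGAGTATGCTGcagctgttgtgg
ADC2: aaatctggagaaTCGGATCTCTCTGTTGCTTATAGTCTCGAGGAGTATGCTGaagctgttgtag
The capitals mark the identical run.

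Chaperones of the HSP70, HSP90 and HSP100 classes, in the cytosol and in organelles, formed the second largest group. These proteins fold and refold other proteins, and several are induced by heat. The list held 11.0% and 11.7% of the nuclear protein-coding value in ein5 dcl4, against 0.0331% and 0.0409% in wild-type Col-0. All 22 tested members of 29 were called higher, and 20 of them with equal table totals, with a median log2 difference of 9.63. Without Col-0 library a or b, 18 were called.

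The HSP70 class gave the largest chaperone values. HSP70 (AT3G12580) held 35268 and 21795 reads in ein5 dcl4, against 3 and 2 reads in Col-0. HSC70-1 (AT5G02500) held 30796 and 18981 reads in ein5 dcl4, against 17 and 8 reads in Col-0 (log2 difference 13.94 ± 0.37, limma adjusted p 3.03e-05). AT3G09440, another HSP70-family gene, held 14953 and 9874 reads in ein5 dcl4, against 1 and 2 reads in Col-0. HSP70 and AT3G09440 were near the floor in Col-0, and all 3 loci were among the 25 largest in ein5 dcl4. Hsp70b and Hsp70-2 followed with 4282 and 2497, and 4116 and 2571 reads in ein5 dcl4, against 1 and 0, and 0 and 2 reads in Col-0. HSP70 and HSC70-1 had 0.261% of the 21-mers of the HSP70 coding sequence in common, with a longest identical run of 23 bases.

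The HSP90 class was led by HSP90.1, with 15931 and 12152 reads in ein5 dcl4, against 4 and 0 reads in Col-0. HSP81-2 held 13468 and 10745 reads in ein5 dcl4, against 6 and 7 reads in Col-0 (13.48 ± 0.31, limma adjusted p 3.00e-05). HSP81-3 held 10206 and 8466, against 14 and 13, and Hsp81.4 4379 and 3304, against 4 and 7. The last 3 are neighbours on chromosome 5. HSP81-2 and HSP81-3 had 43.4% of the 21-mers of the HSP81-2 coding sequence in common, with an identical run of 238 bases, so reads of these genes cannot be assigned to 1 of them with certainty. HSP90.1 and HSP81-2 had 0.989% in common.

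Organelle and endoplasmic reticulum chaperones had smaller values, with an exception in mitochondria. The mitochondrial MTHSC70-2 held 1201 and 641 reads in ein5 dcl4, against 1 and 0 reads in Col-0, whereas mtHsc70-1 held 9 and 4, against 1 and 0. For MTHSC70-2, 22.0% of its exonic 21-mers also occur elsewhere in the nuclear or organelle genomes. The plastid cpHsc70-2 held 67 and 36 reads in ein5 dcl4, against 1 and 2 reads in Col-0, and the binding proteins BIP1 and BIP2 held 45 and 23, and 18 and 20, against 2 and 4, and 3 and 3. The calls of BIP1 and BIP2 were lost without at least 1 library (limma adjusted p up to 0.0928 and 0.0536), and 47.9% and 47.2% of their exonic 21-mers occur elsewhere. HSP101, the cytosolic disaggregase, had 8 and 6 reads in ein5 dcl4 and 0 in both Col-0 libraries.

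Other chaperone families had few reads. The 7 tested small heat shock proteins of 38 were all called higher in every scaling, but the list held 0.00887% and 0.00737% of the nuclear protein-coding value in ein5 dcl4, against 0.00776% and 0.00359% in wild-type Col-0. AT5G02480 had the most reads among them, 37 and 13 in ein5 dcl4, against 1 and 0 reads in Col-0. Of 23 tested J-domain co-chaperones, which hand substrates to HSP70, 15 were higher and 1 lower, and 7 and 3 with equal table totals, while 7 or 5 were higher without Col-0 library a or b. Their share was 0.0235% and 0.0221% in ein5 dcl4, against 0.241% and 0.189% in wild-type Col-0. Among 5 tested organelle chaperonins 3 were called higher, in deposited units and with equal table totals, namely CPN60A, Cpn60beta2 and HSP60. Each had 9 to 27 reads in a mutant library and 0 to 3 in a wild-type library. Over only 5 loci, this 60% stands beside 58.9% of all tested loci in deposited units and 35.7% with equal table totals.

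Chromatin readers were represented by 2 bromodomain genes. GTE7 and GTE2 encode proteins of the BET class, which bind acetylated histones. GTE7 (AT5G65630) held 57245 and 37358 reads in ein5 dcl4, against 30 and 25 reads in Col-0 (log2 difference 13.90 ± 0.55, limma adjusted p 0.000116). GTE2 (AT5G10550) held 35341 and 21703 reads in ein5 dcl4, against 24 and 5 reads in Col-0 (14.15 ± 0.59, limma adjusted p 0.000129). Both stood among the 5 largest loci and made up 99.9% of the bromodomain list, whose share was 7.54% and 7.52% in ein5 dcl4, against 0.0466% and 0.0402% in wild-type Col-0. The next member, AT2G26110, held 48 and 28 reads in ein5 dcl4, against 7 and 6 reads in Col-0, a call that was lost without at least 1 library (limma adjusted p up to 0.0675). Of 9 tested members of 25, 7 were called higher, 5 with equal table totals and 4 with either Col-0 library left out. Both GTE loci overlap a neighbouring annotated gene. The model of TOP2 (AT5G10540), a metalloprotease gene with 3935 and 2438 reads in ein5 dcl4, against 10 and 5 reads in Col-0, spans that of GTE2 on the other strand, so reads of these loci may be shared.

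GTE7 and GTE2 had 0.584% of the 21-mers of the GTE7 coding sequence in common. The longest identical run, 25 bases at the end of the coding sequence, is shown in capitals (TAIR10.1; GTE7 at chr5:26226311-26226355 and GTE2 at chr5:3332995-3333036, both minus strand, printed as coding strand and ending with the stop codon).
GTE7: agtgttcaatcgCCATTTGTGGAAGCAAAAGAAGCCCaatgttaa
GTE2: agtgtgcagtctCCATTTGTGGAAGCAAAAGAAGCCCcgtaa
Little coding sequence was common to this pair, as to the NIA pair. The pairs were chosen after their large values were seen, so no link between value and common sequence can be read from them.

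Other chromatin lists were small in reads. Of 16 tested core histone and histone-like genes 14 were called higher, and 10 with equal table totals, but 7 without ein5 dcl4 library a and 3 or 4 without Col-0 library a or b. Their share was 0.0161% and 0.0108% in ein5 dcl4, against 0.109% and 0.0595% in wild-type Col-0. AT2G30620 and AT1G06760 share the winged-helix description of the list member HON4 but stood in no list. They held 1929 and 1413, and 990 and 828 reads in ein5 dcl4, against 2 and 0, and 1 and 0 reads in Col-0. The chromatin remodelling ATPases, among them BRM and SYD, had at most 11 reads in a library, with 6 of 8 called higher, 3 with equal table totals and 1 to 4 with 1 library left out.

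Transcription factors with large values came 1 or a few per family. In the MYB family, 24 of 30 tested members were called higher and 0 lower, and 20 and 5 with equal table totals. MYB28 (AT5G61420), an activator of aliphatic glucosinolate genes, held 11887 and 8358 reads in ein5 dcl4, against 11 and 11 reads in Col-0 (log2 difference 12.72 ± 0.22, limma adjusted p 2.25e-05). Its close relative MYB29 held 1913 and 1390 reads in ein5 dcl4, against 1 and 1 reads in Col-0, and the phenylpropanoid repressor MYB4 held 1714 and 972, against 3 and 3. MYB28 and MYB29 had 1.15% of the 21-mers of the MYB28 coding sequence in common, and the longest identical run was 29 bases (TAIR10.1, coding strand; MYB28 at chr5:24690223-24690275, minus strand; MYB29 at chr5:2447575-2447627, plus strand).
MYB28: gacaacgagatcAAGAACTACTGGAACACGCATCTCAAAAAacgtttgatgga
MYB29: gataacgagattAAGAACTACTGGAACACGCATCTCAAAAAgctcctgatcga
The capitals mark the identical run. The MYB list held 1.31% and 1.42% of the nuclear protein-coding value in ein5 dcl4, against 0.155% and 0.169% in wild-type Col-0.

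In the TCP family of growth regulators 9 of 10 tested members were called higher, 4 with equal table totals, 5 without ein5 dcl4 library a and 3 without Col-0 library a or b. TCP14 held 11573 and 6188 reads in ein5 dcl4, against 15 and 14 reads in Col-0 (12.20 ± 0.32, limma adjusted p 3.00e-05). With the second member it made up 98.5% of the list. AtTCP23 held 76 and 61 reads in ein5 dcl4, against 14 and 10 reads in Col-0 (5.47 ± 0.27, limma adjusted p 0.000222). The miR319 target TCP2 held 96 and 48 reads, against 20 and 7, a call lost without any 1 of the 4 libraries (limma adjusted p 0.0641 to 0.0954).

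Homeodomain factors gave 21 of 29 tested members called higher, 10 with equal table totals and 9 or 8 without Col-0 library a or b. HB5, a class I leucine zipper homeodomain factor, held 5418 and 3977 reads in ein5 dcl4, against 4 and 3 reads in Col-0 (12.58 ± 1.15, limma adjusted p 0.00148). BLH1, of the BELL class, held 2052 and 1481 reads, against 1 and 3, and HB6, the relative of HB5, 969 and 963, against 3 and 1. HB5 had the largest SE of the 3, and its limma adjusted p reached 0.0353 when 1 library was left out.

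Other families had 1 or 2 members above 1000 units or none. Of 16 tested GRAS factors 12 were called higher, 6 with equal table totals and 7 without Col-0 library b, and RGA1 had the largest value. Among 28 tested bHLH factors 21 were called higher, 12 with equal table totals and 10 or 7 without Col-0 library a or b, with HBI1 at 770 and 391 reads in ein5 dcl4, against 0 and 1 reads in Col-0. FMA, known for guard cell identity, held 42 and 24 reads in ein5 dcl4 and 0 in both Col-0 libraries. In the NAC family 11 of 12 were called higher, 8 with equal table totals and 7 with either Col-0 library left out, and NAC083 held 435 and 228 reads in ein5 dcl4, against 4 and 3 reads in Col-0 (8.70 ± 0.38, limma adjusted p 0.000146). WRKY factors had 12 of 15 called higher and 11 with equal table totals, with WRKY29 at 34 and 10 reads in ein5 dcl4 and 0 in both Col-0 libraries. The growth-regulating factor GRF5 held 1165 and 515 reads in ein5 dcl4, against 5 and 3 reads in Col-0 (9.92 ± 0.36, limma adjusted p 8.79e-05).

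Glucosinolates are sulfur-rich defence compounds of the mustard family, made from tryptophan or methionine. The glucosinolate list held 2.76% and 3.19% of the nuclear protein-coding value in ein5 dcl4, against 0.0647% and 0.0760% in wild-type Col-0. Of 18 tested members of 28, 15 were called higher and 12 with equal table totals.

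On the tryptophan route, CYP79B2 and CYP79B3 make indole-3-acetaldoxime. CYP79B2 (AT4G39950) held 12440 and 9451 reads in ein5 dcl4, against 1 and 1 reads in Col-0. CYP79B3 (AT2G22330) held 7337 and 5605 reads in ein5 dcl4, against 5 and 5 reads in Col-0 (12.79 ± 0.49, limma adjusted p 0.000105). CYP83B1, which takes the aldoxime on, had 74 and 67 reads, against 4 and 4 (6.45 ± 0.68, limma adjusted p 0.00194). SOT16, a sulfotransferase known to act on indole glucosinolates, held 24 and 31 reads in ein5 dcl4, against 26 and 21 reads in Col-0, and was not called (limma adjusted p 0.103). On this route the values dropped after the first step. CYP81F4, which modifies indole glucosinolates, held 57 and 49 reads in ein5 dcl4 and 0 in both Col-0 libraries. The indole regulator MYB51 held 24 and 17, against 1 and 0, and MYB34 9 and 11, against 5 and 1, where the MYB34 call was lost without at least 1 library (limma adjusted p up to 0.0621).

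CYP79B2 and CYP79B3 had 1.66% of the 21-mers of the CYP79B2 coding sequence in common, with a longest identical run of 32 bases in capitals (TAIR10.1, both plus strand; CYP79B2 at chr4:18525701-18525756 and CYP79B3 at chr2:9488997-9489052).
CYP79B2: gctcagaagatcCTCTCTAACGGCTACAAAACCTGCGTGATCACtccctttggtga
CYP79B3: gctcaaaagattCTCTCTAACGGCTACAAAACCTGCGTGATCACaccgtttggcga
The mean value of CYP79B3 in ein5 dcl4 was 59.2% of that of CYP79B2.

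On the methionine route the regulators had larger values than the enzymes. Beside MYB28 and MYB29, the third regulator MYB76 held 57 and 33 reads in ein5 dcl4 and 0 in both Col-0 libraries. The chain elongation gene MAM1 had 6 and 3 reads, against 0 and 2. CYP79F1 and CYP79F2, which make the methionine-derived aldoximes, had 2 and 2, and 3 and 2 reads in ein5 dcl4, against 2 and 4, and 4 and 5 reads in Col-0, and neither was called (limma adjusted p 0.0788 and 0.0753).

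Phenylpropanoids, the precursors of lignin and flavonoids, gave 14 of 14 tested members of 22 called higher and 13 with equal table totals. Without Col-0 library a or b, 8 were called. 4CL1, the ligase that activates coumarate, held 4359 and 3122 reads in ein5 dcl4, against 3 and 2 reads in Col-0 (12.44 ± 0.50, limma adjusted p 0.000119). PAL1, the first enzyme of the route, held 340 and 276 reads in ein5 dcl4 and 0 in both Col-0 libraries, and 4CL2 169 and 126, also against 0. PAL2 and the chalcone synthase TT4 followed with 48 and 29, and 33 and 26 reads in ein5 dcl4, against 1 and 2, and 1 and 1 reads in Col-0, and their calls were lost without at least 1 library (limma adjusted p up to 0.0582 and 0.0785). The list held 0.413% and 0.463% of the nuclear protein-coding value in ein5 dcl4, against 0.00776% and 0.0136% in wild-type Col-0. Beyond the list, the phenylalanine synthesis gene ADT4 held 1720 and 885 reads in ein5 dcl4, against 9 and 3 reads in Col-0. The glucosyltransferase UGT84A2, known to act on sinapate, held 3494 and 2469, against 8 and 5.

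Over the whole cytochrome P450 family the counts were near the background. Of 41 tested members of 249, 22 were called higher and 2 lower, and 14 and 7 with equal table totals, while 14 were higher without Col-0 library b. The CYP79B pair made up 96.1% of its value in ein5 dcl4. CYP78A5, a gene of organ growth, held 395 and 167 reads in ein5 dcl4 and 0 in both Col-0 libraries.

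**Figure D3:**
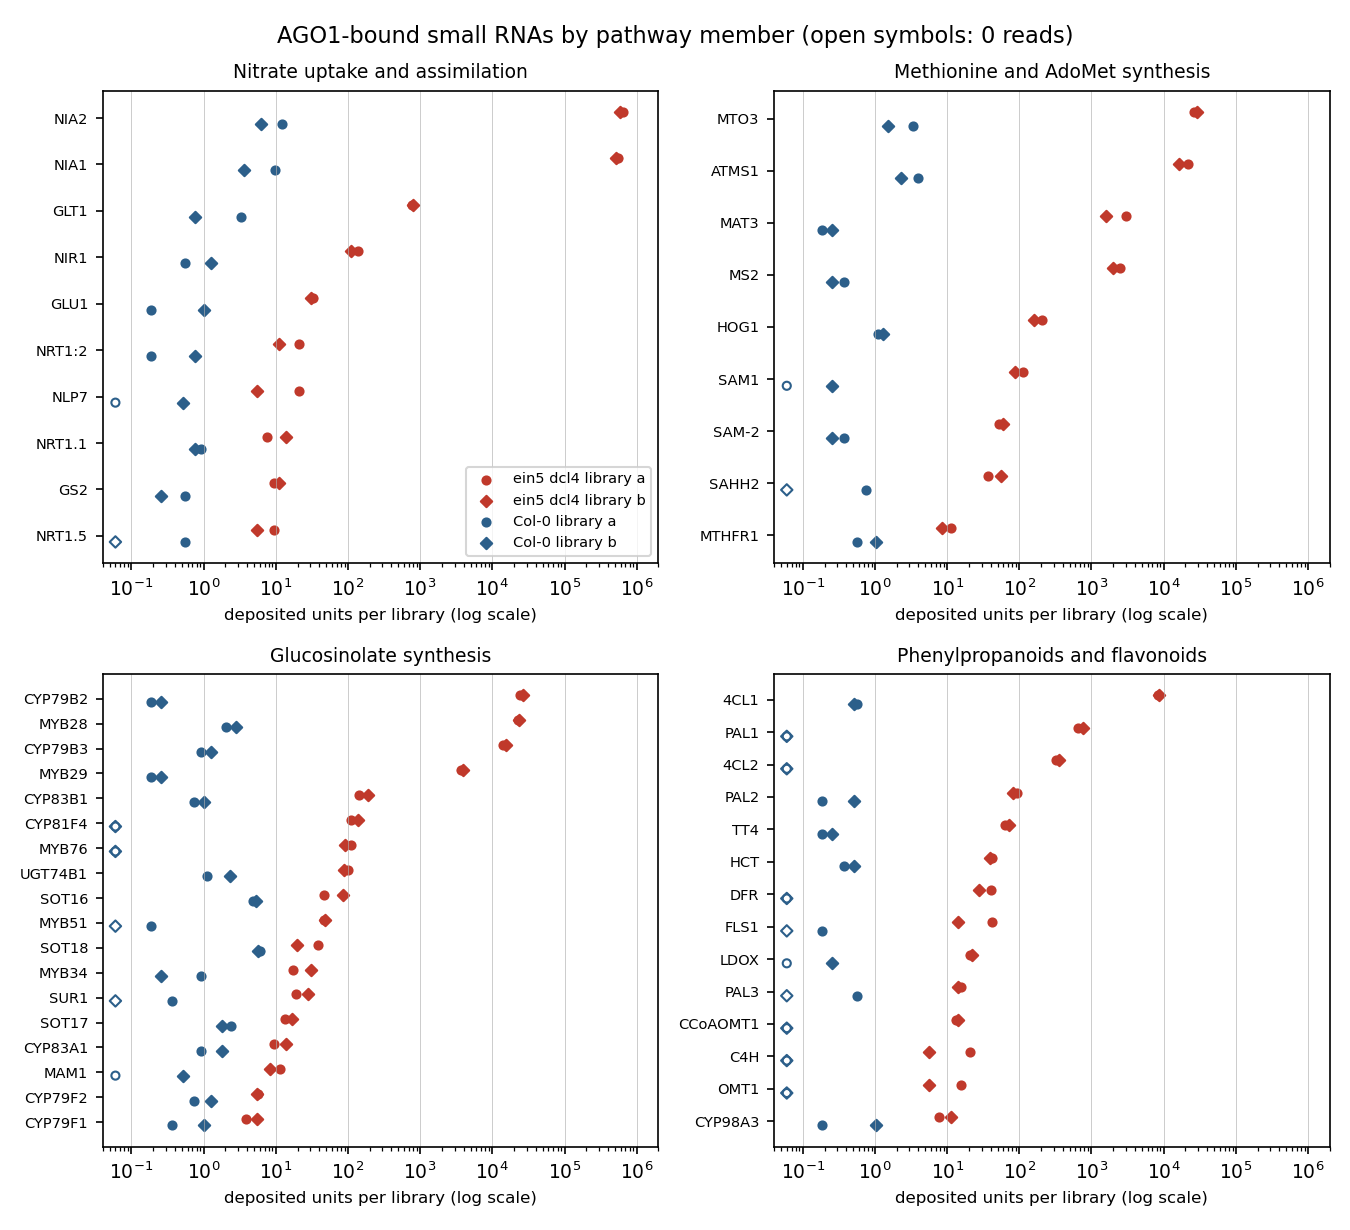
Deposited units per library, on a log axis, for every tested member of 4 routes, with members ordered by their ein5 dcl4 value. Red symbols are the ein5 dcl4 libraries a (circle) and b (diamond), blue symbols the Col-0 libraries, and open symbols at the left edge mark 0 reads. In each route 1 to 4 genes stand above 1000 units in ein5 dcl4, as NIA2, MTO3, CYP79B2 and 4CL1 do, and most others lie between 3 and 1000 units.

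Hormone signalling gave large values at receptors, repressors and transport. In the SMXL family of chaperone-like repressors all 7 tested members of 8 were called higher in every scaling, and 5 without Col-0 library a or b. SMXL5 and SMXL4, known from phloem formation, held 21906 and 15543, and 5604 and 3994 reads in ein5 dcl4, against 1 and 2, and 2 and 6 reads in Col-0. SMXL7, a strigolactone signalling repressor, held 1392 and 877 reads in ein5 dcl4, against 3 and 0 reads in Col-0. Its relative SMXL6 held 16 and 6, against 2 and 0, a call lost without at least 1 library (limma adjusted p up to 0.117). SMAX1, the karrikin signalling repressor, held 72 and 45, against 3 and 0. The family held 2.36% and 2.60% of the nuclear protein-coding value in ein5 dcl4, against 0.00932% and 0.00646% in wild-type Col-0.

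Of the gibberellin and brassinosteroid genes all 9 tested members of 49 were called higher in every scaling, and 7 without Col-0 library a or b. BRI1, the brassinosteroid receptor kinase, held 9866 and 6105 reads in ein5 dcl4, against 1 and 4 reads in Col-0 (log2 difference 13.50 ± 0.43, limma adjusted p 5.49e-05). BRL2, its vascular relative, held 2891 and 2014 reads, against 2 and 0, while BRL1 and BRL3 held 5 and 7, and 17 and 6, against 0 and 2, and 1 and 1. Large and small values thus stood side by side in 1 receptor family, and the call of BRL1 was lost without at least 1 library (limma adjusted p up to 0.119). RGA1 and GAI, the DELLA repressors of gibberellin responses, held 5110 and 2760, and 458 and 199 reads in ein5 dcl4, against 7 and 9, and 13 and 9 reads in Col-0. RGA1 was counted with the GRAS factors and not in the gibberellin and brassinosteroid list. The log2 difference was 11.62 ± 0.34 for RGA1 and 7.70 ± 0.33 for GAI, with limma adjusted p of 4.07e-05 and 0.000137.

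Cytokinin genes were led by CRF2, a cytokinin response factor, with 6894 and 3466 reads in ein5 dcl4, against 11 and 8 reads in Col-0 (11.86 ± 0.29, limma adjusted p 3.00e-05). CRF3 and CRF4 held 477 and 233, and 329 and 127 reads in ein5 dcl4, against 2 and 0, and 0 and 0 reads in Col-0, and CRF1 and CRF6 28 and 23, and 33 and 22, against 4 and 1, and 5 and 4, with the CRF6 call lost without at least 1 library (limma adjusted p up to 0.0595). ABCG14, the transporter that loads cytokinin for the way from root to shoot, held 2679 and 1845 reads in ein5 dcl4, against 3 and 0 reads in Col-0. All 10 tested members of 21 were called higher, and 9 with equal table totals.

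Of 11 tested Aux/IAA and auxin transport genes of 46, 10 were called higher, 6 with equal table totals and 5 or 6 without Col-0 library a or b. The repressor IAA2 held 613 and 560 reads in ein5 dcl4, against 1 and 0 reads in Col-0, and IAA16 56 and 34, against 0 and 1. The efflux carrier PIN3 held 31 and 30, against 6 and 8 (4.82 ± 0.60, limma adjusted p 0.00301). Beyond the list, the GH3 auxin-conjugating enzymes DFL1 and WES1 held 4802 and 2634, and 1252 and 732 reads in ein5 dcl4, against 1 and 2, and 0 and 0 reads in Col-0. PID, the kinase that acts on PIN carriers, held 777 and 308, against 1 and 0.

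Abscisic acid and ethylene lists had lower values. PYL4, an abscisic acid receptor, held 90 and 74 reads in ein5 dcl4, against 1 and 0 reads in Col-0, and the phosphatase PP2CA 104 and 41, against 3 and 0. Of 21 tested members 17 were called higher, 9 with equal table totals, and 6 without ein5 dcl4 library a, without Col-0 library a or without Col-0 library b. All 5 tested ethylene signalling genes of 15 were called higher, 3 with equal table totals and 2 or 1 without Col-0 library a or b, each with at most 21 reads in a library. EBF1, an F-box regulator of EIN3, held 21 and 20 reads in ein5 dcl4, against 15 and 8 reads in Col-0, and was not called with equal table totals.

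Among receptor-like kinases of meristem and vascular signalling 5 of 6 tested members of 12 were called higher in every scaling. BAM3 held 5746 and 3334 reads in ein5 dcl4, against 2 and 1 reads in Col-0. BAM1 (AT5G65700), a receptor related to CLV1, held 2628 and 1529, against 7 and 9 (10.71 ± 0.33, limma adjusted p 4.85e-05). PXY, the receptor that keeps the cambium dividing, held 2862 and 1670, against 2 and 4 (11.57 ± 0.30, limma adjusted p 3.00e-05). BAM2 had 352 and 174 reads, against 8 and 7, and CLV1 26 and 7, against 5 and 1, the last a call lost without at least 1 library (limma adjusted p up to 0.0566). CRN, a receptor partner without kinase activity, held 2 and 1 reads in ein5 dcl4, against 9 and 3 reads in Col-0 and was not called. BAM3 and BAM1 had no 21-mer of their coding sequences in common. In the full receptor-like kinase list 55 of 69 tested members were called higher and 30 with equal table totals, while without Col-0 library a or b 24 or 26 were called.

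Cell wall, lipid and transport genes had single large members. GAE6, an epimerase that makes the sugar nucleotide of pectin, held 15590 and 9708 reads in ein5 dcl4, against 107 and 67 reads in Col-0 (10.51 ± 0.25, limma adjusted p 3.00e-05). AT4G24780, a pectin lyase family gene, held 437 and 398 reads, against 5 and 3 (9.03 ± 0.85, limma adjusted p 0.00157), and the polygalacturonase PG2 901 and 546, against 15 and 16 (8.53 ± 0.27, limma adjusted p 5.49e-05). XTH9, which remodels xyloglucan, held 646 and 536, against 3 and 8. The wall-loosening list as a whole had 20 of 42 tested members called higher and 2 lower, and 14 and 19 with equal table totals, while 11 were higher with either Col-0 library left out. The share called higher was thus below that of all tested loci. Among 7 tested cellulose synthase genes 6 were called higher, 4 with equal table totals and 3 without Col-0 library a or b, with CESA6 at 61 and 32 reads in ein5 dcl4, against 2 and 7 reads in Col-0.

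In lipid synthesis DGAT3 (AT1G48300), which makes storage triacylglycerol, held 24232 and 15609 reads in ein5 dcl4, against 3 and 3 reads in Col-0. The ketoacyl-CoA synthases KCS10 and KCS8, which elongate fatty acids for wax and cutin, held 391 and 141, and 276 and 79 reads in ein5 dcl4, against 2 and 0, and 1 and 1 reads in Col-0. Of 26 tested members of 130, 20 were called higher, 13 with equal table totals and 10 or 12 without Col-0 library a or b. ABC transporters gave 20 of 24, 15 with equal table totals and 13 or 12 without Col-0 library a or b, with ABCB15 at 154 and 112 reads in ein5 dcl4 and 0 in both Col-0 libraries. Of 11 tested aquaporins 9 were called higher but 3 with equal table totals, and 1 to 3 with any 1 library left out.

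Sulfate assimilation supplies cysteine to methionine and glucosinolates. Of 12 tested members of 31, 11 were called higher in every scaling and 1 lower in deposited units. APR2, the reductase of activated sulfate, held 620 and 567 reads in ein5 dcl4, against 9 and 4 reads in Col-0 (9.20 ± 0.35, limma adjusted p 0.000105). SERAT2;1, a serine acetyltransferase, held 222 and 135, against 8 and 10 (7.08 ± 0.34, limma adjusted p 0.000212). APR3 held 43 and 24, against 2 and 0. The root sulfate transporter SULTR1;1 went the other way, with 7 and 7 reads in ein5 dcl4, against 181 and 144 reads in Col-0 (log2 difference -1.07 ± 0.33, limma adjusted p 0.0499), a call that was lost without any 1 library (up to 0.216). Without Col-0 library a or b, 6 members were called higher.

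**Figure D4:**
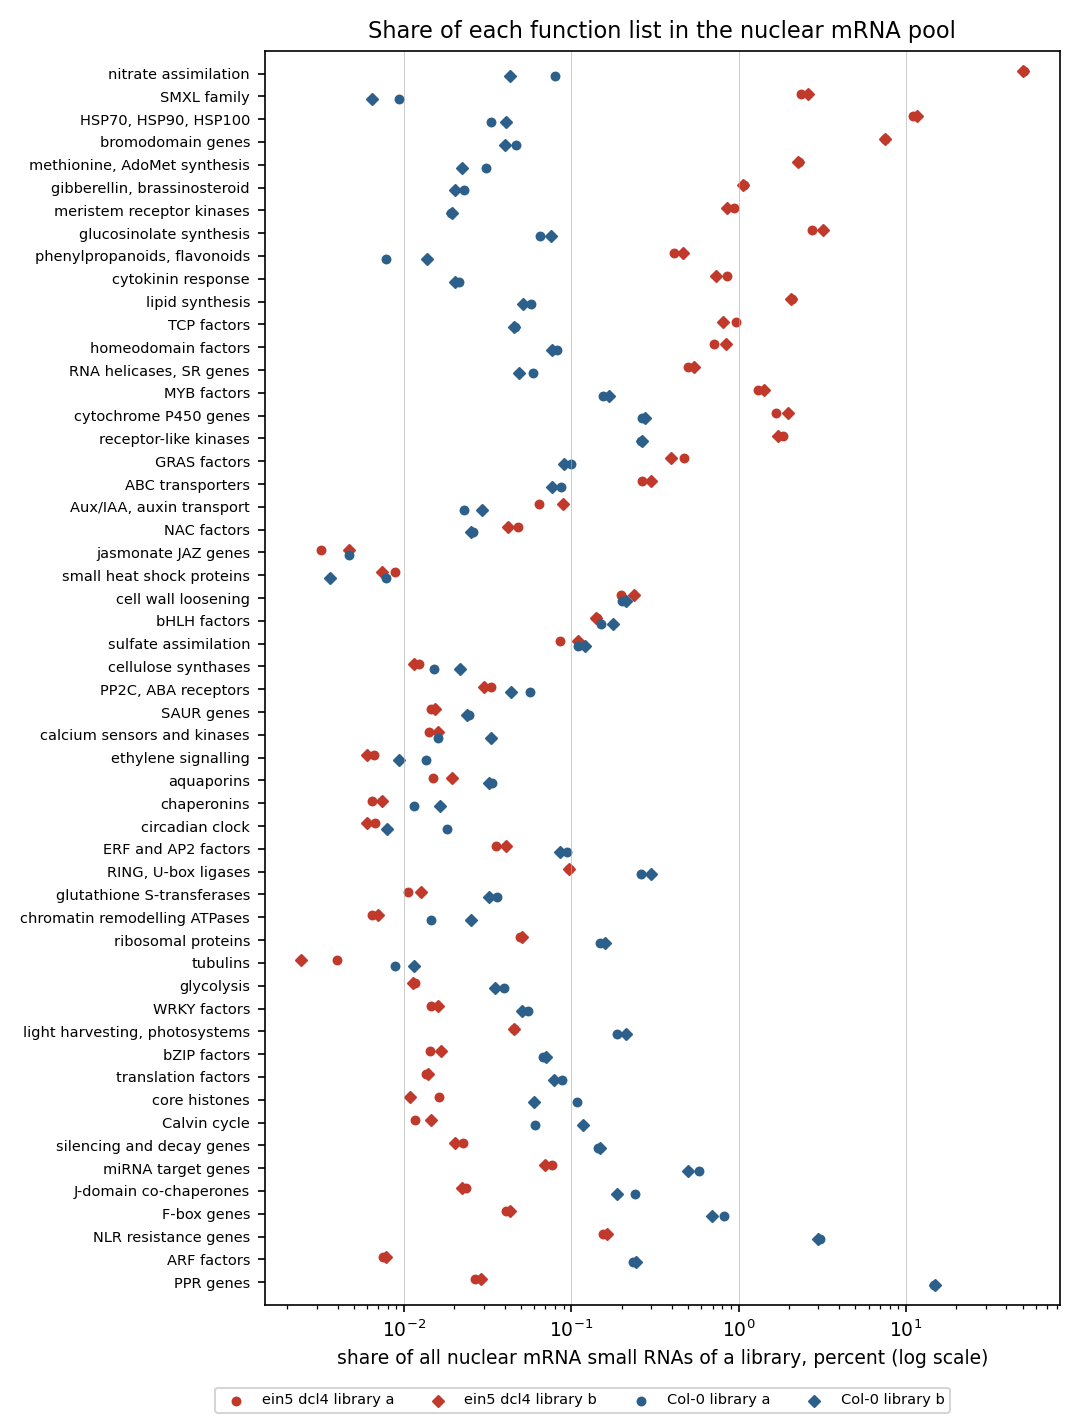
Share of each function list with at least 5 tested members in the value of all nuclear protein-coding loci of a library, in percent on a log axis, ordered by the ratio of the genotype means. Red symbols are the ein5 dcl4 libraries a (circle) and b (diamond) and blue symbols the Col-0 libraries; a share of 0, as for the JAZ genes in Col-0 library b, is not drawn. Nitrate assimilation (50.7% and 50.3% in ein5 dcl4) heads the lists and the PPR genes (14.9% in both Col-0 libraries) close them.

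Shares of the nuclear protein-coding value do not depend on the scaling of a library. Of 54 lists with at least 5 tested members, 21 had a larger share in both ein5 dcl4 libraries than in both Col-0 libraries and 30 had a smaller one. Such a share can fall while a list gains, because the whole rose more. NIA2 and NIA1 made up 50.4% of that whole in ein5 dcl4. Lists of abundant leaf proteins were among those with a smaller share. As a part of the table total, ribosomal proteins rose from 0.0235% and 0.0233% in the Col-0 libraries to 0.0471% and 0.0474% in the mutant libraries. Light harvesting and photosystem subunits rose too, while for Calvin cycle genes the genotypes overlapped. Of the nuclear protein-coding value, ribosomal proteins held 0.0495% and 0.0504% in ein5 dcl4, against 0.148% and 0.160% in wild-type Col-0. Of 43 tested ribosomal protein genes 33 were called higher, 15 with equal table totals and 10 or 9 without Col-0 library a or b, and with equal totals the share was near that of all tested loci. Light harvesting and photosystem subunits held 0.0451% and 0.0457%, against 0.188% and 0.214%, and 22 of 35 were called higher, 7 with equal table totals and 12 or 11 without Col-0 library a or b. In deposited units their share called higher, 62.9%, was near the 58.9% of all tested loci. LHCB2.2, a light-harvesting protein, held 39 and 32 reads in ein5 dcl4, against 3 and 6 reads in Col-0, but 48.0% of its exonic 21-mers occur elsewhere. Calvin cycle genes held 0.0116% and 0.0145%, against 0.0606% and 0.117%, with 10 of 14 called higher, 3 with equal table totals and 4 or 6 without Col-0 library a or b. RBCS1A, the small Rubisco subunit, had 33 and 18 reads in ein5 dcl4, against 45 and 51 reads in Col-0. Its difference of 2.32 in deposited units was -0.89 with equal table totals. Actin ACT2 had 3 and 3 reads in ein5 dcl4, against 5 and 2 reads in Col-0, with a difference of 2.22 and of -0.03 with equal table totals, and its call was lost without at least 1 library (limma adjusted p up to 0.0904).

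Translation factors gave 8 of 14 tested members called higher, 4 higher and 4 lower with equal table totals, and 5 higher without Col-0 library b. In deposited units the share of tested translation factors called higher, 57.1%, was near the 58.9% of all tested loci. The proteasome subunits had 0 tested members of 38 and at most 9 reads per locus over the 4 libraries. Starch and sucrose genes had 3 tested of 67, and kinesins and myosins 0 of 47.

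**Figure D5:**
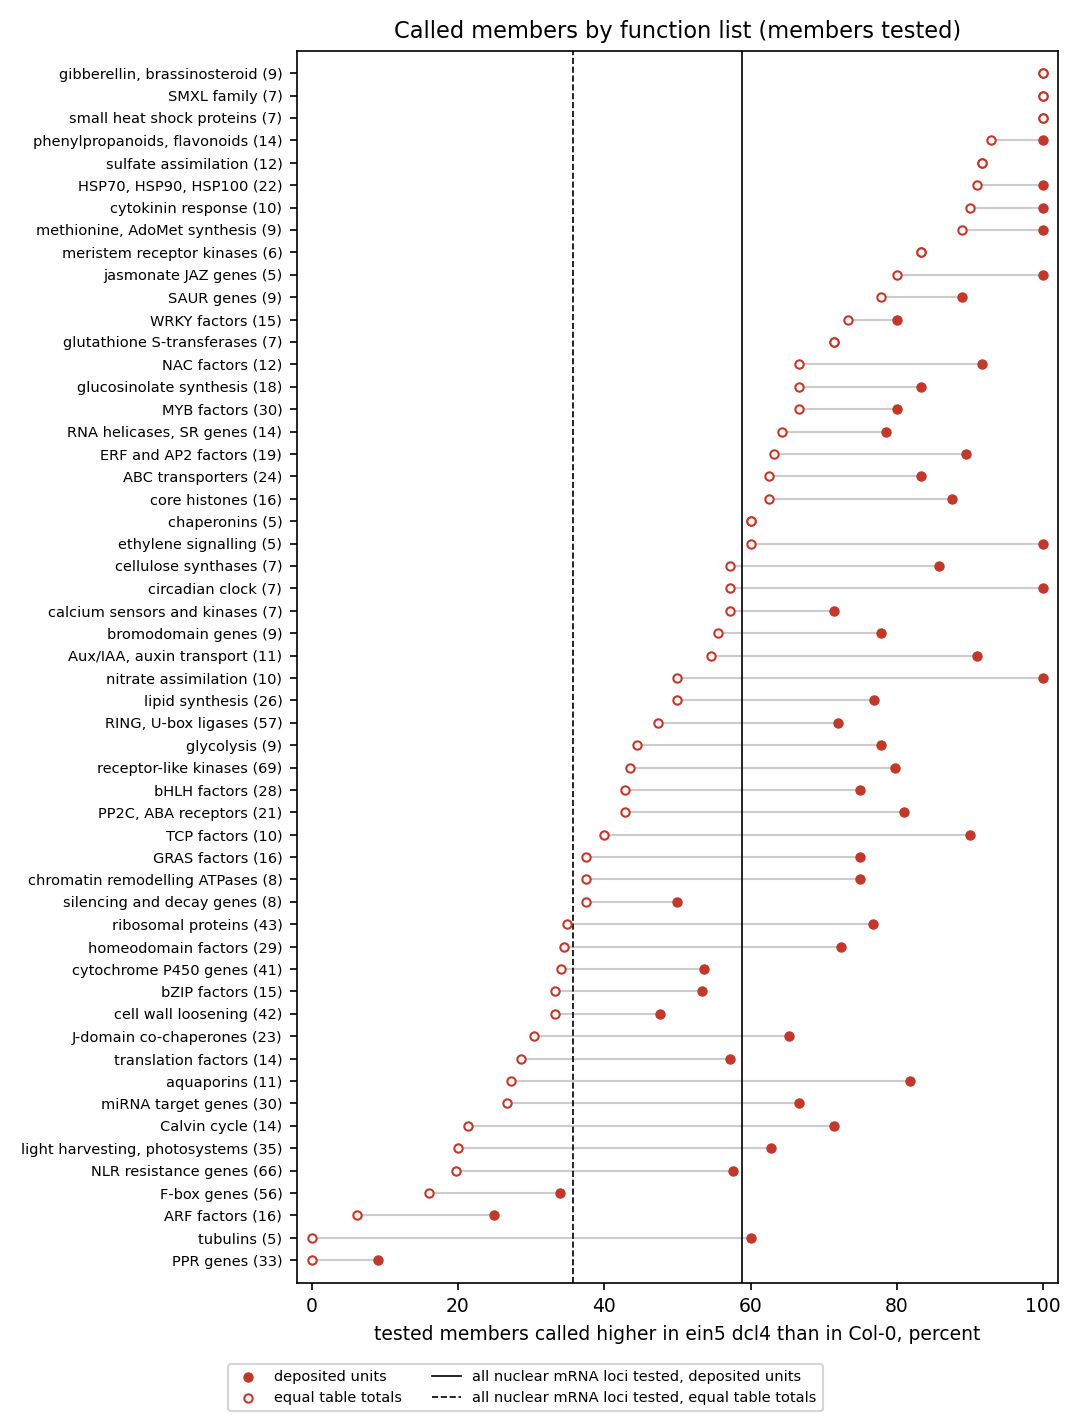
Percent of tested members called higher in ein5 dcl4, for each function list with at least 5 tested members (number tested in parentheses), in deposited units (filled) and with equal table totals (open). The vertical lines give the same share for all nuclear protein-coding loci tested, 58.9% in deposited units (solid) and 35.7% with equal table totals (dashed). The SMXL family, the small heat shock proteins and the gibberellin and brassinosteroid genes are at 100% in both, and the PPR genes are lowest, at 3 of 33 and 0 of 33, with the tubulins also at 0 after rescaling.

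In deposited units, fewer functions had members called lower than higher. With equal table totals lower calls rose from 224 to 976 of the 3475 loci tested, and more lists held some. PPR genes encode RNA-binding proteins of plastids and mitochondria, and some are known sources of secondary siRNAs in wild-type plants. The PPR list held 0.0264% and 0.0288% of the nuclear protein-coding value in ein5 dcl4, against 14.9% and 14.9% in wild-type Col-0. Of 33 tested members of 276, 15 were called lower and 3 higher, and 22 and 0 with equal table totals, and between 1 and 7 were higher with 1 library left out. AT1G63080 held 21 and 18 reads in ein5 dcl4, against 8513 and 6233 reads in Col-0 (log2 difference -5.11 ± 0.22, limma adjusted p 0.000133). AT1G63400 held 16 and 21 reads, against 7782 and 5786 (-5.08 ± 0.39, limma adjusted p 0.000933), and AT1G62914 11 and 17, against 7662 and 5634 (-5.45 ± 0.40, limma adjusted p 0.000825). At each the wild-type libraries lay far above the mutant libraries. RPF6 and AT1G63630, annotated with related tetratricopeptide repeats, held 9 and 9, and 4 and 8 reads in ein5 dcl4, against 2141 and 1429, and 2490 and 1124 reads in Col-0. The call of RPF6 did not hold when a Col-0 library was left out (limma adjusted p 0.0613 for a and 0.0578 for b). In AT1G63080, AT1G63400 and AT1G62914, 32.9%, 70.6% and 53.2% of the exonic 21-mers occur elsewhere in the nuclear or organelle genomes. Their reads may thus be counted at several loci. Without Col-0 library a or b, 9 or 8 members were called lower.

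F-box genes, the substrate adaptors of ubiquitin ligases, were mixed, with 19 of 56 tested members higher and 12 lower, and 9 and 37 with equal table totals, while 9 or 6 were higher without Col-0 library a or b. AT1G66290 held 1 and 0 reads in ein5 dcl4, against 251 and 198 reads in Col-0 (-4.86 ± 0.54, limma adjusted p 0.00223), and AT3G07870 12 and 13, against 1 and 1. RING and U-box ligases leaned the other way, with 41 of 57 higher and 3 lower, 27 and 10 with equal table totals, 18 higher with either Col-0 library left out, and PUB25 at 204 and 113 reads in ein5 dcl4, against 12 and 7 reads in Col-0. AT2G25410, a RING gene, had 0 reads in both ein5 dcl4 libraries and 114 and 104 in Col-0. Other loci among the 10 largest decreases with 0 reads in ein5 dcl4 were AT5G35300, AT2G04060 and AT1G64340, with 117 and 86, 131 and 75, and 100 and 68 reads in Col-0.

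Auxin response factors (ARF), some of them targets of trans-acting siRNAs or miRNAs, gave 4 of 16 tested members higher and 4 lower, and 1 and 10 with equal table totals. The lower ones were ARF12, ARF15, ARF20 and ARF23, which are related genes on chromosome 1. ARF20 held 1 and 0 reads in ein5 dcl4, against 68 and 55 reads in Col-0 (-3.07 ± 0.57, limma adjusted p 0.0103). ARF4 held 7 and 2, against 50 and 57, and was not called in deposited units. With ein5 dcl4 library a or b left out, 2 members were called higher, and with Col-0 library a or b left out no member was called higher or lower. The ARF share was 0.00748% and 0.00775% in ein5 dcl4, against 0.232% and 0.242% in wild-type Col-0.

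NLR disease resistance genes, many of which are known sources of secondary siRNAs in wild-type plants, had 38 of 66 tested members called higher and 0 lower, but 13 and 22 with equal table totals, and 15 or 14 were higher without Col-0 library a or b. Their share was 0.156% and 0.162% in ein5 dcl4, against 3.09% and 2.98% in wild-type Col-0. The share of tested members called higher, 57.6%, was near the 58.9% of all tested loci. With equal table totals it was 19.7%, against 35.7% of all tested loci. Calls at this family turned with the scaling, as calls over all tested loci did. AT1G59218 had 100% of its exonic 21-mers elsewhere in the genome.

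Among 30 tested miRNA target genes 20 were called higher, 8 higher and 9 lower with equal table totals, and between 8 and 12 higher with 1 library left out. AGO2, the target of miR403 and itself a silencing factor, held 218 and 106 reads in ein5 dcl4, against 78 and 68 reads in Col-0 (4.38 ± 0.28, limma adjusted p 0.000519). PAP1, an anthocyanin regulator, held 167 and 65, against 10 and 3 (6.75 ± 0.62, limma adjusted p 0.00150). In reads, several others were lower in ein5 dcl4, as DCL1 with 8 and 9, against 85 and 54, AGO1 with 23 and 6, against 72 and 60, and AFB3 with 47 and 30, against 387 and 140. None of these 3 was called in deposited units. The list held 0.0762% and 0.0695% of the nuclear protein-coding value in ein5 dcl4, against 0.578% and 0.498% in wild-type Col-0.

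Shared sequence was compared in 14 paralog pairs, which were chosen after the large values of their members were seen. No 21-mer of the coding sequence was common to both members in 3 pairs, NIA2 and NIA1, SMXL5 and SMXL4, and BAM3 and BAM1. In the other 11 an identical run of at least 21 bases existed, and the shared part was largest in HSP81-2 and HSP81-3. The smaller member reached 86.1% of the larger in NIA1 and NIA2, 87.8% in the ADC genes and 87.2% in HSC70-1 and HSP70, and 8.19% in GAI and RGA1.

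The loci with large values were longer than the typical tested locus. They were chosen by units per locus and not per kilobase, a choice that can itself favour long loci. Median exonic length was 2555 bases in the 25 largest loci, 2369 in the 82 loci above 1000 units and 1854 in all 3475 loci tested, with a median of 2, 2 and 3 exons. Values per kilobase of exon ran from 355 to 192427 units over the 82 loci, with a median of 2620. Loci with more than 20% of their 21-mers elsewhere in the nuclear or organelle genomes were counted as a share of each set. The share was 6.10% in the 82 loci, 4.65% in the 1226 loci called higher in all scalings and 15.5% in all tested loci. In the 192 loci called lower in all scalings it was 34.4%. Overlap with another annotated gene was found for 17.1% of the 82 loci and 24.2% of all loci tested, and for these the strand of the counts is not given in the sources used here. Among the loci described above, GTE7, GTE2, TOP2, MTO3, AT3G09440, 4CL1, ABCG14, BLH1, AT2G30620, AT1G06760, APR2 and AT5G43740 overlap another annotated gene. So do others with smaller values, among them GLT1, SERAT2;1 and NAC083. Of the 82 loci, 51 belonged to at least 1 function list and 31 to none. Outside all lists were ERD5, the proline dehydrogenase gene, with 5920 and 3338 reads in ein5 dcl4, against 2 and 1 reads in Col-0, and the drought-induced gene ERD15 with 4481 and 2432, against 2 and 1.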

How the data were processed

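The authors deposited 1 table of 32420 loci with a mean signal per locus and genotype, headed TPM per the file headers. Its columns summed to 2404778 for ein5 dcl4 and 235535 for Col-0, so the total behind the unit is unknown. Bowtie 1.2.2, SAMtools 1.9, DESeq2 and the TAIR10 build stand in the submitters' processing notes, and per the labels' protocols only Read1 entered. The sources used here do not give small RNA lengths, the strand of the counts or how reads with several matches were counted. The miRNA loci MIR166e and MIR166f held 26720.8 units each in Col-0, and 12866.5 and 12867.4 units in ein5 dcl4. Reads that match several loci may thus be counted in full at each, which was not tested. The recovered read numbers, table totals and miRNA shares may then count a read more than once. The deposited table also held the authors' adjusted p-values and log2 fold changes.

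Each deposited signal was resolved into whole reads of 2 libraries (100% of values above 0, relative tolerance 1e-14), which carry no replicate number. Loci with at least 10 reads over the 4 libraries were tested on log2(value + 1), a scale that understates changes of low loci, by limma 3.58.1 under R 4.3.3. All 6 libraries entered 1 fit with a trended prior (residual degrees of freedom 3, prior 2.36). Two-sided p-values were adjusted by Benjamini-Hochberg over 6956 loci and called under 0.05, and they measure the spread between these libraries. The procedure was tested on simulated data, where 18 of 100 4-fold changes and 56 of 100 16-fold changes were recovered. Many changes of either size were thus missed. At 3 or fewer Col-0 reads only reads are given. Rescalings used equal table totals, a trimmed mean or equal miRNA totals; other filters, pseudocounts, a 4-library fit, voom, a repeat filter and leaving out each library were tried.

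Of the table's loci 31722 matched the RefSeq annotation of TAIR10.1, the source of names, coordinates and sequences. Occurrences of exonic 21-mers elsewhere were counted over the nuclear, plastid and mitochondrial genomes. Loci were named by rule: the 25 largest ein5 dcl4 values called higher, up to 3 called members per list with the largest log2 difference and at least 20 ein5 dcl4 reads (where there was none, the member with most ein5 dcl4 reads), the 10 largest decreases, EIN5, DCL4, the NIA genes, SMXL4 and SMXL5. Other loci, among them further list members, were named after their values were seen. Members, rules and the 63 function lists were chosen with earlier results of these data known. A further 4 lists and the 14 pairs were chosen after values were seen.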

Additional observations from a re-analysis of the deposited data

How the results depend on the processing

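No paired analysis was possible because the recovered libraries carry no replicate number. The 2046 nuclear protein-coding loci called higher and 224 called lower became 1240 and 976 with equal table totals and 644 and 135 with at least 30 reads. Without a filter 3501 were higher and 134 lower, and with a mean of at least 1 unit 4341 were higher. Lower calls also moved to 633 with the trimmed-mean rescaling, 338 with 4 libraries in the fit and 145 with voom. With 1 library left out, higher calls ran from 926 (Col-0 library b; 951 for a) to 1724 and lower calls from 107 (Col-0 library b; 108 for a) to 262. The 10 loci of largest value in any genotype, 5 of them miRNA loci, were also taken out of the loci and the total. The nuclear protein-coding share was then 92.1% in ein5 dcl4 and 28.1% in Col-0. With all loci kept, leaving out either ein5 dcl4 library left this share between 94.0% and 95.1% in ein5 dcl4. Of 156 loci named by rule with a test, 144 kept direction and call with equal table totals, 9 were no longer called, XRN4 became called, and 2 reversed, ACT2 to -0.026 and RBCS1A to -0.89. The cause of these changes was not tested. With 1 library left out, 13 to 26 of the 156 lost their call, most without a Col-0 library. Depth limits low loci: 1268 of the 2046 higher calls rest on fewer than 20 ein5 dcl4 reads, and 1 read weighs more in ein5 dcl4 units than in Col-0 units.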
